A study of Mus musculus with 32 samples.

Results

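Fibronectin and the matricellular proteins were followed through the differentiation of UB/OC-1, a cell line of the mouse. The set was given as a list of 8 genes (Fn1, Ccn1, Ccn2, Thbs1, Sparc, Spp1, Tnc and Mgp), and its members are the probe sets whose annotated symbol is one of them. A probe set was found for 7 of the 8 genes, and Spp1 was skipped for want of one. The 7 genes have 10 probe sets of 13057, and all 10 were among the 7726 that were tested. The list was drawn up with earlier results of these arrays known, and Mgp and Ccn2 in particular were chosen by their measured values in the first days at the higher temperature. Their changes between phases, which rest on those days, are therefore given as descriptions without a test.

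UB/OC-1 is a conditionally immortal line established from the embryonic auditory sensory epithelium, the organ of Corti, and all samples come from this 1 line. Conditionally immortal lines of this kind carry a temperature-sensitive viral large T antigen, which keeps cells dividing at the lower temperature and loses its function at the higher one. Cells at 33 °C, labelled undifferentiated, are day 0, and all other cultures were kept at 39 °C, the condition labelled as differentiating. Total RNA was hybridised to oligonucleotide arrays, 16 of design a and 16 of design b. The titles give each array of design a a partner of design b with the same experiment and day, here called 1 culture, and whether a pair carried the same RNA is not stated. Experiment A covered days 0 to 9, 11 and 14, and experiment B, described in the labels as its replica, covered days 0, 2, 4 and 9. For the tests the days formed 4 phases. Day 0 has 2 cultures, the early phase (days 1 to 3) has 4, the middle phase (days 4 to 7) has 5 and the late phase (days 8 to 14) has 5. No phase has several cultures of the same experiment and day, so the spread within a phase includes change from day to day, and the p-values speak only of the spread among these 16 cultures, which the labels do not describe as independent.

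Fibronectin is a large secreted glycoprotein that cells assemble into fibrils through integrins, above all the integrin of the alpha 5 and beta 1 chains. Matricellular proteins are secreted into the same matrix but act less as structural parts than as modulators of adhesion, growth factor activity and matrix assembly. Many of them are made when tissue is being built or repaired, and several, the CCN proteins among them, are known as targets of TGF-beta, of serum response factor and of the YAP and TEAD proteins, which respond to cell spreading and tension. In the cochlea the matrix carries the sensory cells and the acellular membranes above and below them.

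Values are intensities scaled by the authors. A floor of 141 on design a and 198 on design b, set from the size of the negative values, replaced lower values before log2 was taken. Each array of design a had 44.3% to 50.8% of its probe sets above the floor, and each of design b 30.9% to 40.4%. The noise level of an array (how large its negative values are, taken at their 75th percentile) was 103 to 204 in experiment A and 68 to 160 in experiment B on design a, and 153 to 325 and 75 to 160 on design b. Day 6 of experiment A stood apart in its ratio of 3′ to 5′ Gapdh control signal, a measure of RNA integrity, with 2.65 on design a and 2.56 on design b against 0.759 to 1.67 and 0.795 to 1.59 on the other arrays. The line was checked against markers of the labelled tissue. Myo7a, a hair cell myosin, was above the floor on 15 of 16 arrays and Gata3, an otic transcription factor, on 12. Sox2, Atoh1 and Gfi1 were at the floor on all 16. The probe sets of Fn1, Sparc and Mgp have names ending in f_at, a suffix given to probes that match related genes as well, so their signal may include that of a relative.

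Among the days at constant 39 °C, Fn1 was the 1 gene whose change passed the test, of Fn1, Sparc, Ccn1, Thbs1 and Tnc. In experiment A it stayed near its day 0 level through day 5 and then fell, on both of its probe sets. In experiment B Fn1 was near its day 0 level on days 2 and 4 and lower on day 9, with no day between. On design b, the probe set with the higher level, its intensity was 3018 and 3095 on day 0 of experiments A and B. Early values were 4426, 3948 and 2938 on days 1, 2 and 3 of experiment A and 3129 on day 2 of experiment B. In the middle phase days 4 to 7 of experiment A gave 3207, 2999, 1805 and 1657, and day 4 of experiment B gave 3047. The first 2 of these days and day 4 of experiment B lie among the earlier values, and days 6 and 7 lie below all of them. Day 6 is the culture with the high Gapdh ratio. In the late phase days 8, 9, 11 and 14 of experiment A gave 1300, 1258, 564 and 660, and day 9 of experiment B gave 1302. Every late value was below every earlier one.

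The second Fn1 probe set, on design a, showed the same course. It read 1988 and 2299 on day 0, between 1869 and 2820 early, between 1127 and 2068 in the middle phase, and between 395 and 1068 late. Over the 16 cultures the pair of Fn1 probe sets had r = 0.948 (Spearman 0.876), across arrays that carry the same experiment and day.

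In the late phase against the early one Fn1 was 3.73-fold lower on design b (-1.90 ± 0.29 log2, SE, n = 5 against 4; limma adjusted p = 0.00405) and 3.56-fold lower on design a (-1.83 ± 0.29, limma adjusted p = 0.00405). No day 0 array enters this comparison. It held under every alternative that was run, with a change between -2.10 and -1.71 on design b (adjusted p between 0.00216 and 0.0407) and between -2.02 and -1.66 on design a (between 0.00121 and 0.0388). Day 6 of experiment A, the culture with the high Gapdh ratio, lies in neither of these phases. These were the only calls among the 10 member probe sets, of which the 3 of Mgp and Ccn2 serve as description, while over all 7726 probe sets 0.427% were higher and 0.557% lower late than early.

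Against day 0, late Fn1 fell 3.20-fold on design b (-1.68 ± 0.37, n = 5 against 2; limma adjusted p = 0.00528) and 3.39-fold on design a (-1.76 ± 0.36, limma adjusted p = 0.00294). Within each experiment day 9 was lower than its own day 0 by similar amounts, 2.40-fold in experiment A and 2.38-fold in experiment B on design b, and 2.09-fold and 2.15-fold on design a. Early Fn1 did not differ from day 0 beyond its error, with 0.22 ± 0.38 on design b (limma adjusted p = 0.947) and 0.07 ± 0.37 on design a (limma adjusted p = 1). Without day 0 of experiment B the late change against day 0 was -1.66 on both designs and did not pass (adjusted p = 0.0634 on design b and 0.0528 on design a), and experiment A alone ended the call on design b (0.0627).

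**Figure D1:**
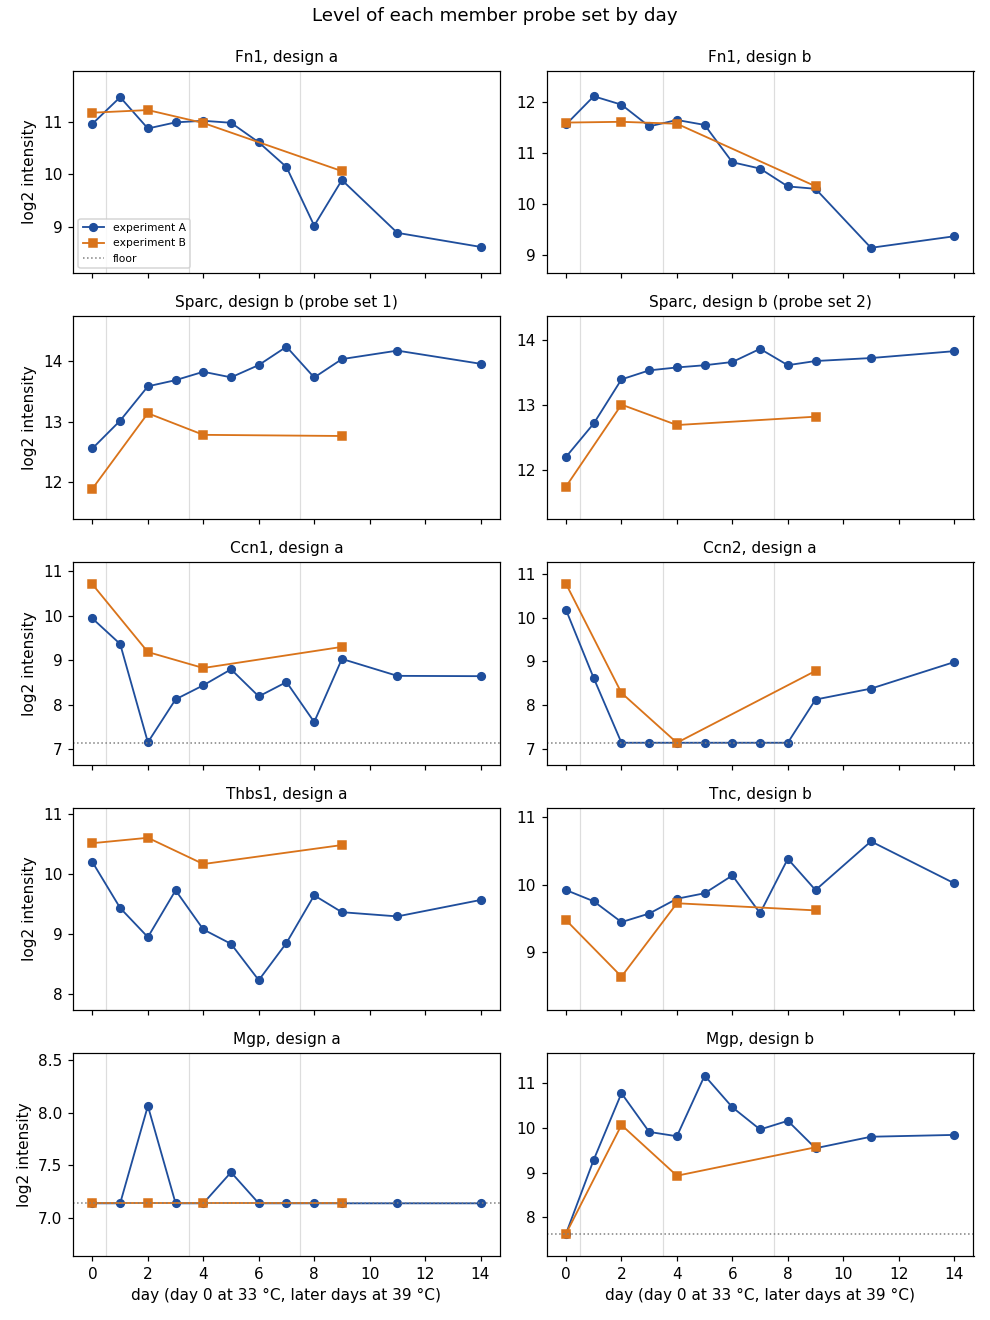
Log2 intensity (vertical axis, after the floor) of each of the 10 member probe sets against the day in culture (horizontal axis), with 1 point per array, circles for experiment A and squares for experiment B, and the floor as a dotted line where it is in range. Sparc probe set 1 is the one with the higher level. Fn1 holds its level to day 5 in experiment A and is lowest on days 11 and 14, Sparc is lowest on day 0, and Ccn1 and Ccn2 are highest on day 0.

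Sparc and Mgp were both higher at 39 °C than on day 0. Sparc, also called osteonectin, binds collagen and calcium and takes part in collagen fibril assembly. On its probe set with the higher level, on design b, Sparc read 6039 and 3815 on day 0 of experiments A and B. Days 1, 2 and 3 of experiment A gave 8292, 12277 and 13177, and day 2 of experiment B gave 9029. Middle values were 14503, 13606, 15664 and 19305 on days 4 to 7 of experiment A and 7055 on day 4 of experiment B. Late values were 13586, 16764, 18475 and 15896 on days 8, 9, 11 and 14 of experiment A and 6963 on day 9 of experiment B. All later cultures were above both day 0 cultures, and from day 4 on experiment B was below every value that experiment A had from day 1. The second Sparc probe set, also on design b, ran from 3428 to 4704 on day 0, 6722 to 11859 early, 6611 to 14928 in the middle phase and 7231 to 14560 late, and followed the first with r = 0.981 (Spearman 0.971, 16 arrays).

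Late Sparc rose 2.83-fold over day 0 on the first probe set (1.5 ± 0.39, n = 5 against 2; limma adjusted p = 0.018) and 2.95-fold on the second (1.56 ± 0.34, limma adjusted p = 0.00533). The early difference was already 2.19-fold (1.13 ± 0.41, limma adjusted p = 0.176) and 2.28-fold (1.19 ± 0.35, limma adjusted p = 0.0755), which did not pass. With experiment as a replicate block both passed early (adjusted p = 0.041 and 0.0154), as they did with quantile normalization (0.00607 and 0.00319). The second probe set also passed early without day 1 of experiment A (0.0436) and without day 4 (0.0362) or day 9 (0.046) of experiment B. With day 0 of experiment B left out, which leaves 1 culture on day 0, the late changes were 1.17 and 1.33 and neither passed (adjusted p = 0.269 and 0.108), and the noise level as a covariate ended the late call of the first probe set (0.0718). Within each experiment, day 2 was above its own day 0 by 2.03-fold in experiment A and 2.37-fold in experiment B, and day 9 by 2.78-fold and 1.83-fold. Among the days at 39 °C no difference passed, with 0.38 ± 0.32 for late against early on the first probe set (limma adjusted p = 0.779).

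Mgp encodes matrix Gla protein, a small vitamin K-dependent protein that keeps soft tissue and cartilage from calcifying. On design b, where it was above the floor on 14 of 16 arrays, both day 0 cultures were below the floor, at 157 and 144. Days 1, 2 and 3 of experiment A gave 625, 1757 and 963 and day 2 of experiment B gave 1072. Days 4 to 7 gave 900, 2311, 1412 and 1000 in experiment A, and day 4 gave 487 in experiment B. Late values were 1144, 747, 893 and 919 in experiment A and 758 in experiment B, the narrowest range of the phases at 39 °C. Every culture at 39 °C thus exceeded both at 33 °C. Taking day 0 at the floor, the phase means were at least 5.21-fold (early, 2.38 ± 0.48) and at least 4.45-fold (late, 2.15 ± 0.47) above it. With the higher floor of 386 these differences were 1.42 and 1.19. Within the days at 39 °C the difference was 0.06 ± 0.38 for middle against early and -0.23 ± 0.38 for late against early.

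The Mgp probe set of design a was above the floor on only 2 arrays, days 2 and 5 of experiment A (268 and 173), which are also the 2 highest on design b. It therefore gives no course of its own. Its changes between phases lay between -0.23 and 0.23, and the pair of Mgp probe sets had r = 0.433 (Spearman 0.571, 16 cultures).

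Ccn1 and Ccn2 went the other way and were highest on day 0. Both encode CCN proteins (Cyr61 and connective tissue growth factor), cysteine-rich secreted proteins that bind integrins and heparan sulfate and promote adhesion, migration and matrix production. On design a, Ccn1 read 981 and 1668 on day 0 of experiments A and B. Days 1, 2 and 3 of experiment A gave 660, 143 and 279, and day 2 of experiment B gave 582. Days 4 to 7 of experiment A gave 347, 445, 292 and 365, and day 4 of experiment B gave 454. Late values were 196, 523, 402 and 400 on days 8, 9, 11 and 14 of experiment A and 631 on day 9 of experiment B. All cultures at 39 °C were below both day 0 cultures, and the phases at 39 °C overlapped one another.

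Late Ccn1 fell 3.19-fold against day 0 (-1.67 ± 0.52, 95% interval -2.75 to -0.59, n = 5 against 2; limma adjusted p = 0.0431). This call is close to the threshold. It ended with the lower floor (adjusted p = 0.0543), without the filter on low values (0.103), in experiment A alone (0.28), and when either day 0 culture was left out (0.0698 without that of experiment A, 0.418 without that of experiment B). It also ended with other phase limits (early as days 1 and 2, late as days 9 to 14, adjusted p = 0.0879), with limma's plain moderation (0.0505) and when any 1 of days 3 to 9, 11 and 14 of experiment A was left out (0.0504 to 0.0851). Early Ccn1 was 3.64-fold below day 0 (-1.86 ± 0.53, n = 4 against 2), which did not pass (limma adjusted p = 0.0634), and with experiment as a replicate block it did (adjusted p = 0.0408). It also passed with the higher floor (0.0214), with the noise covariate (0.0231), and when day 1 (0.0256) or day 8 (0.046) was dropped from experiment A, or day 2 from experiment B (0.0403). Between phases at 39 °C the differences were 0.09 ± 0.41 for middle against early and 0.19 ± 0.41 for late against early, with limma adjusted p-values of 1 and 0.938.

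Ccn2 read 1161 and 1754 on day 0 of experiments A and B. It was 393 on day 1 and 83 and -23 on days 2 and 3 of experiment A, and 311 on day 2 of experiment B. All 5 middle cultures were at the floor, with 12, -87, -30 and 69 on days 4 to 7 of experiment A and 133 on day 4 of experiment B. On day 8 it was still at the floor (102), and then it was above it again, with 280, 333 and 507 on days 9, 11 and 14 of experiment A and 441 on day 9 of experiment B. The early level was 6.43-fold (-2.68 ± 0.49) and the late level 4.58-fold (-2.20 ± 0.47) below day 0, both low estimates because some cultures were at the floor. The return from the middle to the late phase was no contrast of the design. Late against early the difference was 0.49 ± 0.38, and the middle level was at least 1.57-fold below the early one.

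Over the 16 cultures Ccn1 and Ccn2 had r = 0.84 (Spearman 0.776), from the same arrays, and both day 0 cultures are the 2 highest of each. Within experiments, day 2 was 6.86-fold (Ccn1) and at least 8.23-fold (Ccn2) below day 0 in experiment A and 2.87-fold and 5.64-fold below it in experiment B.

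A promoter sequence was available for 3 of the 7 genes (Ccn1, Sparc and Tnc), from RefSeq on GRCm38.p6. The 150 bases before the start of Ccn1 and Sparc are printed 5′ to 3′ on the gene's strand, to set a member that was lower at 39 °C beside one that was higher, with matches to the searched motifs in capitals. That of Ccn1 is chr3:145649986-145650135 (minus strand), and that of Sparc is chr11:55420081-55420230 (minus strand).
Ccn1: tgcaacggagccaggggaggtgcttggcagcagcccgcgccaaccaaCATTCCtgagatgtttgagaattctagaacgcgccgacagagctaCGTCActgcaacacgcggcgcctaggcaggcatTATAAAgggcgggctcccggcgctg
Sparc: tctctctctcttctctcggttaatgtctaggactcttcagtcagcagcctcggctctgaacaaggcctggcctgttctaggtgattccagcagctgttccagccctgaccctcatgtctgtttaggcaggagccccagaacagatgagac
Searched on both strands in the 250 bases before the start were CATTCC (the core of TEAD sites), TGACG (the CRE, part of a cyclic AMP response element), TGANTCA (AP-1), the CArG box of serum response factor and TATAAA (the TATA box). None of these overlapped another in these sequences. In Ccn1 the capitals mark a TEAD core at 103 to 98 bases before the start, the CRE letters on the opposite strand at 58 to 54, and a TATA box at 25 to 20. None of the 5 motifs was found in the window of Sparc. The 2 windows of Tnc overlap and share 1 match to TATAAA, with no other motif found. It lies 126 to 121 bases before 1 start and 205 to 200 before the other. Such matches are common: of 32851 mouse promoters, 12.6% held the TEAD core, 17.8% the CRE letters, 6.75% AP-1, 1.47% a CArG box and 12.4% a TATA box. They are matches of letters and were not tested as binding sites.

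**Figure D2:**
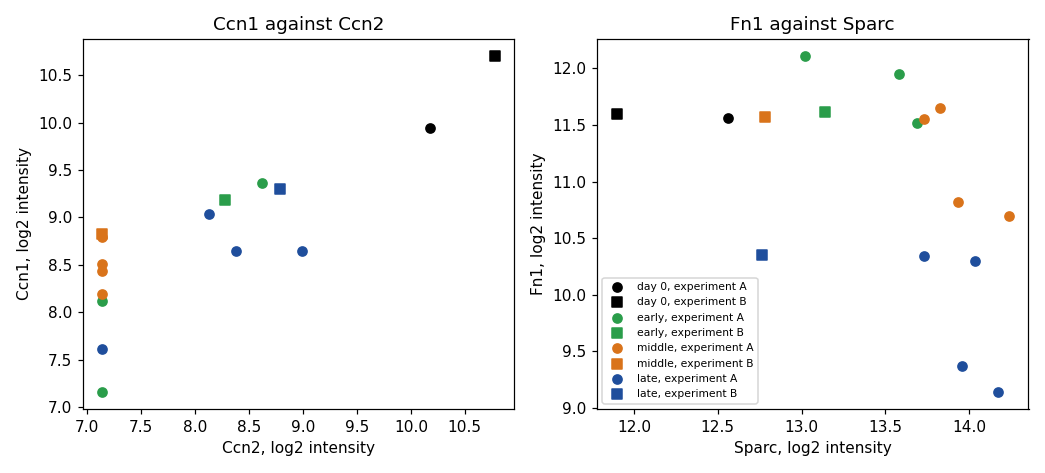
Log2 intensity of Ccn1 against Ccn2 (left, both design a) and of Fn1 against Sparc (right, both design b, probe sets with the higher level), with 1 point per culture, colours for the phases and circles or squares for experiments A and B. Both day 0 cultures lie at the upper right for Ccn1 and Ccn2, and Fn1 and Sparc separate the phases along different axes, with day 0 at low Sparc and the late cultures at low Fn1.

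Thbs1 and Tnc showed no change between phases that passed the test. Thbs1 encodes thrombospondin 1, which binds CD47 and CD36, restrains blood vessel growth and can activate latent TGF-beta. It read 1178 on day 0 of experiment A, then 694, 496 and 851 on days 1 to 3, 542, 459, 302 and 464 on days 4 to 7, and 803, 661, 630 and 761 on days 8, 9, 11 and 14. Experiment B read 1465, 1560, 1152 and 1434 on days 0, 2, 4 and 9. Day 0 was the highest culture of experiment A, whereas all values of experiment B lay between 1152 and 1560. Against its own day 0, Thbs1 was 2.38-fold, 2.17-fold and 1.78-fold lower on days 2, 4 and 9 in experiment A, against 1.06-fold higher, 1.27-fold lower and 1.02-fold lower in experiment B. The difference between these courses was not tested. Pooled, the changes were -0.68 ± 0.48 early against day 0 (limma adjusted p = 0.703) and -0.68 ± 0.46 late against day 0 (limma adjusted p = 0.429).

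Tnc encodes tenascin C, a six-armed glycoprotein of developing and healing tissue that weakens adhesion to fibronectin. Its day 0 values were 968 and 710 in experiments A and B. Days 1, 2 and 3 of experiment A gave 862, 696 and 760 and day 2 of experiment B gave 397, the lowest of all. Days 4 to 7 gave 885, 937, 1125 and 763, with 845 on day 4 of experiment B. Late values were 1335, 968, 1599 and 1039, with 785 on day 9 of experiment B. All phases overlapped their neighbours. Late against early Tnc was 1.70-fold higher (0.77 ± 0.28, 95% interval 0.18 to 1.36), which did not pass (limma adjusted p = 0.28). The intervals of Thbs1 for the same contrast (-0.78 to 0.77) and of Tnc do not show that either stayed level.

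Taken by comparison, early against day 0 gave 0 calls among the 7 member probe sets that were tested there (Fn1, Sparc, Ccn1, Thbs1 and Tnc), where limma's unadjusted p was under 0.05 for 3, and 3 passed with experiment as a replicate block (Ccn1 and both of Sparc). Over all 7726 probe sets 1.45% were higher and 2.05% lower in that comparison, where limma's unadjusted p was under 0.05 for 1009. With the block 469 of the 7726 were called. Late against day 0 gave 2 higher (both of Sparc) and 3 lower (both of Fn1, and Ccn1) of 7, with 4.84% higher and 6.08% lower over all. Leaving out day 0 of experiment B left none of these 5. Middle against early gave 0 calls among the same 7, with limma's unadjusted p under 0.05 for none. Mgp and Ccn2 are described only there too. Over all probe sets 0% were higher and 0% lower in that comparison, and limma's unadjusted p was under 0.05 for 382 of 7726. The median change of these 7 against day 0 was 0.07 early and -0.68 late, beside 0.05 and 0.11 over all probe sets. With Mgp and Ccn2 included as description, the median of all 10 was -0.06 in middle against early. It was 0.09 in late against early. Over all probe sets these medians were 0.02 and 0.05. Early and late against day 0 share the day 0 arrays.

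**Figure D3:**
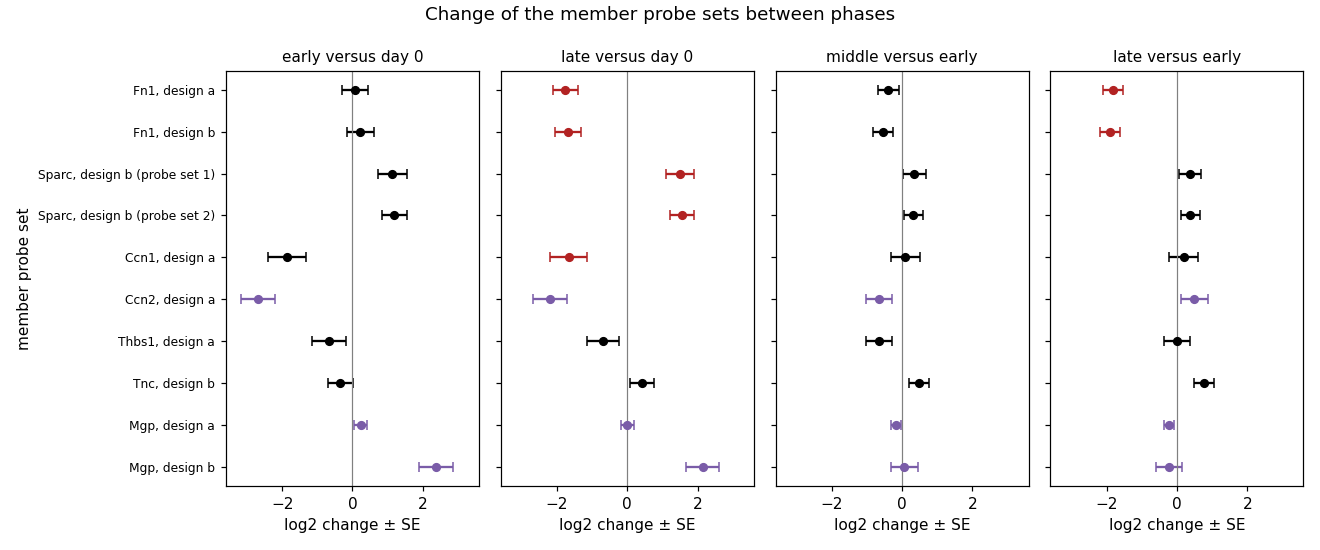
Log2 change (horizontal axis, points, with bars of 1 SE) of each member probe set in the 4 contrasts between phases, in red where the limma adjusted p was under 0.05, in black where it was not, and in purple for Mgp and Ccn2, which are shown without a test. Fn1 is red in both late contrasts, Sparc and Ccn1 only against day 0, and no point is red early against day 0 or middle against early.

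Levels at the 4 days that both experiments share were compared as a mean difference, A minus B, taken as constant over the days. Whether the courses changed alike from day to day was not tested. Thbs1 was 2.06-fold lower in experiment A (-1.04 ± 0.24 log2, A minus B, lower on 4 of 4 days; limma adjusted p = 0.052). Ccn1 was 1.82-fold lower on 4 of 4 days (-0.86 ± 0.33, limma adjusted p = 0.151). Sparc was 1.81-fold higher in experiment A on its first probe set (0.85 ± 0.17, limma adjusted p = 0.0641) and 1.57-fold on its second (0.65 ± 0.12, limma adjusted p = 0.0593), each on 4 of 4 days. Ccn2 was 1.51-fold lower, on 3 of 4 days (-0.60 ± 0.24, limma adjusted p = 0.163). Tnc was 1.33-fold higher on 4 of 4 days (0.41 ± 0.14, limma adjusted p = 0.168), and Fn1 differed by -0.17 ± 0.12 on design a and 0.08 ± 0.08 on design b. None of the 10 probe sets passed, where 5.32% of all probe sets were called higher and 4.36% lower in experiment A. Limma's unadjusted p was under 0.05 for 5 of the 10, and for 2329 of all 7726. With any 1 of the 4 days left out, no probe set on the arrays passed. Under a lower floor, no filter, or a filter of at least 8 arrays above the floor, Thbs1 and both Sparc probe sets passed, and Ccn1 did too without a filter. Of all probe sets 928 of 9608, 1433 of 13057 and 1450 of 5665 passed under these settings in turn. Arrays of experiment A also had the higher noise level given above, and its part in these differences was not tested.

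**Figure D4:**
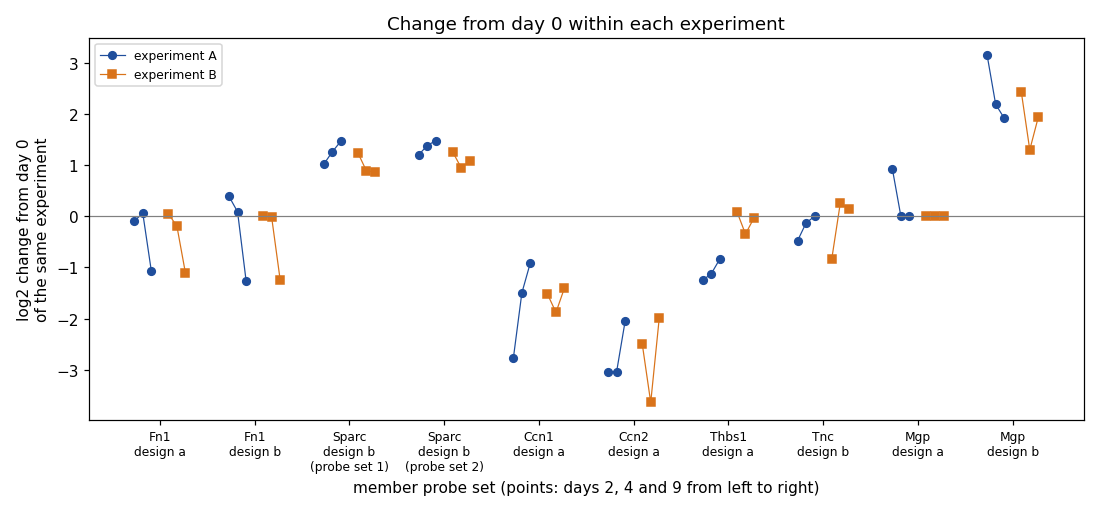
Log2 change from day 0 of the same experiment (vertical axis) on days 2, 4 and 9 (points from left to right) for each member probe set, circles for experiment A and squares for experiment B, 1 array per point. Fn1 lies lowest on day 9 in both experiments, and Thbs1 lies below 0 on all 3 days in experiment A and between -0.35 and 0.09 in experiment B.

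Across the 16 cultures the members fell into opposing courses, given here as descriptions, since the day 0 cultures weigh on all of them. Sparc had r = 0.741 (Spearman 0.461) with Mgp, -0.756 (Spearman -0.715) with Thbs1 and -0.495 (Spearman -0.574) with Fn1. Mgp had r = -0.785 (Spearman -0.737) with Ccn1. Fn1, whose change came later, had r = -0.605 (Spearman -0.631) with Tnc, 0.134 with Ccn1 and -0.139 with Mgp.

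For each member the genes with the most similar course over the 16 arrays of its design were named by Pearson's r, with no p, among 3753 probe sets of single symbol on design a and 1192 on design b (1191 for Sparc). Fn1 was closest to S100a10 (r = 0.873), a calcium-binding protein partner of annexin A2, to Timp1 (0.845), an inhibitor of matrix metalloproteinases, and to Peg3 (0.838), an imprinted gene. Sparc was closest to H3f3a (0.953), a histone gene, Glg1 (0.947), a Golgi glycoprotein gene, and Col6a2 (0.943), a chain of collagen VI. For Mgp they were Atxn10 (0.895, Spearman 0.861), Cryab (0.844, Spearman 0.514), a small heat shock protein, and Grn (0.844, Spearman 0.767), progranulin. Ccn1 was closest to Hint1 (0.949), Psma7 (0.928), a proteasome subunit, and Ctps (0.919), which makes CTP. Ccn2 was closest to Asns (0.89), asparagine synthetase, Psmc4 (0.885), another proteasome subunit, and Tm4sf1 (0.883). Thbs1 lay nearest to Anp32a (0.921), Jpt1 (0.859) and Snrpb (0.834), a splicing protein, and Tnc to Cela1 (0.832), Siah2 (0.804) and Ptpn13 (0.783). By rank some pairs were less alike, with Spearman 0.648 for Tnc with Siah2 and 0.762 for Ccn1 with Ctps. Others were more alike, with 0.918 for Fn1 with S100a10 and 0.909 for Ccn2 with Tm4sf1.

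Other genes of the same matrix family were mostly too dim to follow. Of 38 listed, 21 had a probe set, and 8 probe sets were tested. Late against day 0, 1 rose and 1 fell, where 4.84% of all probe sets were higher and 6.08% lower. Fbln2, a fibulin that binds fibronectin, fell 3.44-fold (limma adjusted p = 0.00215), and Postn, periostin, rose at least 4.11-fold (limma adjusted p = 0.0292). The call of Postn ended without day 0 of either experiment or without day 9 or 11 of experiment A. It also ended with the higher floor, without the filter and in experiment A alone. Late against early, 1 of 8 fell, Igfbp7 (8.14-fold, limma adjusted p = 0.00474), a secreted protein that binds insulin-like growth factors and collagen. Its call, like that of Fbln2, held under every alternative run. Of all probe sets 0.427% were higher and 0.557% lower late against early. Early against day 0 gave 0 of 8, where 1.45% of all probe sets were higher and 2.05% lower. Middle against early gave 0 of 8, where 0% were higher and 0% lower. With experiment as a replicate block 1 was higher early against day 0, 1 higher and 2 lower late against day 0, and 2 lower late against early. The median changes late against day 0 and late against early were 0.16 and -0.24, beside 0.11 and 0.05 over all probe sets.

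Among cell surface receptors of the members, several were higher at the end of the course. Of 20 tested probe sets, from 18 of 23 listed genes with a probe set, 5 rose and 1 fell late against day 0, where 4.84% of all probe sets were higher and 6.08% lower, with a median change of 0.51 beside 0.11 over all. Sdc2, a heparan sulfate proteoglycan that binds fibronectin, rose 8.49-fold (limma adjusted p = 0.000173) and Cd47, a receptor of thrombospondin 1, 7.30-fold on 1 probe set (limma adjusted p = 0.00127), both low estimates. Lrp1, which takes up thrombospondin 1 and CCN2, rose 2.61-fold (limma adjusted p = 0.00916), and Sdc4, a coreceptor of fibronectin in focal adhesions, 2.34-fold (limma adjusted p = 0.0209). The calls of Lrp1 and Sdc4 ended without day 0 of either experiment. That of Sdc4 also ended without the filter, in experiment A alone and with other phase limits. With experiment as a replicate block 7 were higher and 2 lower. Late against early, Sdc2 was the 1 that rose (3.34-fold, limma adjusted p = 0.0202), a call that ended in experiment A alone, with other phase limits and without the filter. There 0.427% of all probe sets were higher and 0.557% lower. Early against day 0, the 1 that rose was another probe set of Cd47 (3.53-fold, a low estimate; limma adjusted p = 0.0275). This early call of Cd47 ended when any 1 of 4 cultures was left out (both of day 0, day 3 of experiment A, day 2 of experiment B). It also ended with the higher floor, without the filter, in experiment A alone and with other phase limits. Of all probe sets 1.45% were higher and 2.05% lower early against day 0. With the block 3 of the 20 were higher and 3 lower. Leaving out 1 culture each, 0 to 4 were higher. Middle against early gave 0 of 20.

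Among TGF-beta signalling genes 12 probe sets were tested, from 16 of 22 listed genes with a probe set. Of all probe sets 1.45% were higher and 2.05% lower early against day 0, and 4.84% higher and 6.08% lower late against day 0. Early against day 0, 2 rose, namely Tgfb3, a TGF-beta ligand (at least 4.34-fold, limma adjusted p = 0.00361), and Smad1, a signal transducer of bone morphogenetic proteins (3.75-fold, limma adjusted p = 0.00874). Late against day 0, 3 rose, namely Tgfb3 (at least 4.04-fold, limma adjusted p = 0.00143), Ltbp3, which holds latent TGF-beta in the matrix (3.42-fold, limma adjusted p = 0.00213), and Smad1 (3.31-fold, limma adjusted p = 0.00559). Both calls of Smad1 ended without day 0 of experiment A, and both of Tgfb3 with the higher floor. In experiment A alone neither early call remained, and that of Ltbp3 late ended (adjusted p = 0.0728). Early against day 0, 3 rose with the block, as they did with the noise covariate and without day 1 or day 8 of experiment A. None fell, and the 2 contrasts among days at 39 °C gave 0 of 12. Of all probe sets 0.427% were higher and 0.557% lower late against early, and 0% either way middle against early. The median change late against day 0 was 0.40 beside 0.11 over all.

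Of the targets and factors of YAP, TEAD and serum response factor, 26 probe sets were tested, from 29 of 37 listed genes with a probe set. None passed early against day 0, where 1.45% of all probe sets were higher and 2.05% lower. There 1 was lower with the replicate block, the higher floor, plain moderation, the noise covariate or experiment A alone, and when day 2 or 11 was dropped from experiment A, or day 0 from experiment B. Dropping day 1 from experiment A gave 2 lower. Late against day 0, 7 fell and 1 rose, where 6.08% of all probe sets were lower and 4.84% higher, with a median change of -0.23 beside 0.11 over all. Acta2, smooth muscle actin, fell at least 8.94-fold (limma adjusted p = 0.000124), Tagln2, a transgelin, 5.15-fold (limma adjusted p = 0.000653), Zyx, a focal adhesion protein, 4.73-fold (limma adjusted p = 0.00087) and Tead2, a TEAD factor, 3.31-fold as a low estimate (limma adjusted p = 0.0175). With the block 2 were higher and 7 lower. Without day 0 of either experiment fewer were lower, and the call of Tead2 was among those that ended. The call of Tead2 also ended in experiment A alone. Late against early 2 fell, where 0.427% of all probe sets were higher and 0.557% lower. They were Acta2 (at least 2.94-fold, limma adjusted p = 0.0371) and Tpm1, a tropomyosin (2.39-fold, limma adjusted p = 0.00255). The call of Tpm1 held under every alternative run, whereas that of Acta2 ended in 12 of 25, 10 of which left out 1 culture each (days 1, 2, 4, 5, 7, 8, 9, 11 and 14 of experiment A and day 9 of experiment B), and the block gave 3 lower. Middle against early gave 0 of 26.

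Bone and cartilage genes, in whose tissues Sparc and Mgp are well known, gave 0 calls. Of 16 listed, 9 had a probe set and 3 probe sets were tested, with a median change of 0.14 late against day 0, beside 0.11 over all. There 4.84% of all probe sets were higher and 6.08% lower.

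Summed markers of several cell types also differed in level between phases. In a culture measured in bulk, fewer cells of a type and less RNA per cell cannot be told apart. Of 8 fibroblast and mesenchyme markers 4 (Col1a1, Pdgfrb, Vim and Dcn) exceeded the floor on 8 arrays or more, while Col1a2 and Lum never were. The summed level of a list, here and for the lists that follow, includes its probe sets that stayed near or below the floor. For these markers it was 6358 to 7990 on day 0 and 4886 to 10842 early. It was 9606 to 21841 in the middle phase and 9647 to 25304 late. The middle and late sums thus exceeded those of day 0, as Sparc did, while the early sums overlapped day 0, where Sparc did not. Dcn ranged from 61 to 22560 and Vim from 1199 to 6878, whereas no Col1a1 probe set exceeded 737 and Pdgfrb reached at most 469. This sum therefore rests largely on Dcn and Vim and does not show that the other markers moved. Smooth muscle markers (3 of 6, with Myh11 above the floor on 1 array) summed to 3066 to 7655, 1536 to 5730, 641 to 1788 and 1059 to 2317 in the same order. Their middle and late sums lay below those of day 0, as Ccn1 and Ccn2 did. The early sums overlapped day 0, where Ccn1 and Ccn2 did not. Tagln reached 4267 and Acta2, also in the list of serum response factor targets, 3129, and no other of these probe sets exceeded 788. Epithelial markers (1 of 6, Krt18, with Cdh1, Epcam, Krt19 and Cldn3 never above the floor) summed to 4442 to 5884, 1751 to 4655, 1069 to 1705 and 792 to 1442. Krt18 reached 5437 and no other of these probe sets exceeded 348, so this sum rests largely on Krt18. Macrophage and blood markers (5 of 8, with Csf1r and Adgre1 never above the floor) summed to 2532 to 6366 on day 0 and 4835 to 14121 late. The brightest of them, Lyz2, ranged from 786 to 9588 and makes up much of that sum. Hair cell markers (2 of 7) summed to 526 to 770 and 601 to 1115, otic and supporting cell markers (3 of 8) to 472 to 920 and 1103 to 1778, endothelial markers (1 of 7) to 218 to 471 and 584 to 1062, and melanocyte and glia markers (2 of 7) to 391 to 1767 and 915 to 2510. The part of these markers in the members' changes was not tested.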

How the data were processed

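Total RNA of UB/OC-1 cultures was measured on array designs a and b, 16 arrays each. The values are linear intensities as deposited by the authors, negative ones included, scaled to trimmed means of 300.4 to 300.8; which software and background method made them is not given in the sources used here. Symbols came from the platform annotation. Controls (61 per design) were left out. Values below the floor (75th percentile of the absolute negative values, 141 and 198) were set to it, and probe sets above it on at least 2 of 16 arrays were tested. A fold is a lower bound where every array of its dimmer side lay at the floor, and a low estimate where some did. The phase contrasts were fitted per design with limma 3.58.1 in R 4.3.3 (lmFit, eBayes with trend and robust, 12 residual degrees of freedom), two-sided, with Benjamini-Hochberg adjustment over both designs and a threshold of 0.05. Experiments were compared over 8 arrays with day as a factor.

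Members, lists, tests and the rule for named genes were chosen with earlier results of these data known. Named were every member, up to 4 called genes per list and contrast by size of change, and the 3 genes most like each member. The lists covered other matricellular genes, receptors, TGF-beta signalling, targets of YAP, TEAD and serum response factor, bone and cartilage, and markers of 8 cell types. The labels call experiment B a replica of A, and differences between A and B correlated between days (r from 0.27 to 0.73 over 12 pairs), so experiment pairs the samples, and blocked values stand where they change a call. In simulated data for late against day 0 over 7726 probe sets, 14% of changes of 1 log2 unit and 66% of changes of 2 were recovered. There were 5 false calls among 85. The simulated noise was independent between arrays, and changes were placed only in probe sets with a mean more than 1 log2 unit above the floor. These shares therefore do not cover dimmer probe sets or the pairing by experiment. The noise level as a covariate was added after seeing the data.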

Additional observations from a re-analysis of the deposited data

Results flagged for a closer look

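Single cultures stood apart from the rest of their phase in 4 of 30 groups of 4 or 5 cultures, where chance gives about 1 in 20. The Mgp probe set of design a read 268 on day 2 of experiment A (log2 8.07) while the other early cultures were at the floor (7.14), and 173 on day 5 of experiment A (log2 7.43) while the other middle cultures were at the floor. With all other values tied at the floor, any single value above it is marked in this way. The second Sparc probe set was lower in experiment B than in the other cultures of its phase, with 6611 on day 4 (log2 12.69, the nearest being 12238 at 13.58) and 7231 on day 9 (log2 12.82, the nearest being 12538 at 13.61).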

How the results depend on the processing

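Of 1130 recomputed values, 1056 kept their direction and side of the threshold, 22 lost and 23 gained a call, 5 moved and 24 changed sign, and the causes were not tested. Member calls early against day 0 numbered 1 with the higher floor, 2 with quantile normalization, 3 with the replicate block and 1 with the noise covariate, against 0, and 0 to 2 leaving out 1 culture each; late against day 0 they numbered 3 in experiment A alone, against 5, and 0 to 5 leaving out 1 culture each. The block changed no other member call. Experiment A against B gave 3 with the lower floor, 4 without a filter and 3 with at least 8 arrays above the floor, against 0. Uncalled values changed sign for Tnc late against day 0 (noise covariate, -0.021), for Ccn1 middle against early (higher floor, -0.14; early as days 1 and 2 and late as days 9 to 14, -0.21), for Mgp on design b middle against early (noise covariate, -0.0155), and for Thbs1 late against early (block, 0.0446; experiment A alone, 0.10; other phase limits, 0.0146; noise covariate, 0.23). Leaving out 1 culture each, the changes ranged from -0.0387 to 0.176 for Fn1 on design a early against day 0. Middle against early they ranged from -0.25 to 0.059 for Mgp on design a, -0.34 to 0.40 for Ccn1 and -0.22 to 0.34 for Mgp on design b. Late against early they ranged from -0.24 to 0.49 for Ccn1, -0.25 to 0.30 for Thbs1 and -0.469 to 0.0284 for Mgp on design b, and leaving out 1 matched day, from -0.00404 to 0.124 for Fn1 on design b between experiments. Over all probe sets the early calls numbered 270 (112 higher), 469 with the block, 173 (43 higher) in experiment A alone, 219 (121 higher) with the lower floor, 297 (87 higher) with the higher floor, 208 (113 higher) with at least 8 arrays, 451 with the noise covariate, and 126 (36 higher) without day 0 of experiment B; without that culture the late calls against day 0 numbered 402, against 844. Without day 0 of experiment A they were 272 early (69 higher) and 668 late (239 higher). Late against early 76 were called, 184 with the block, 166 with the noise covariate, 118 with other phase limits, 40 without a filter, 31 in experiment A alone and 30 to 118 leaving out 1 culture each, and middle against early 52 with other phase limits and 0 to 26 leaving out 1 culture each, against 0. Between experiments 748 of 7726 were called, 1433 of 13057 without a filter, 477 of 5675 with the higher floor and 1450 of 5665 with at least 8 arrays. With any 1 matched day left out 0 were called. In every comparison the lower floor tested 9608 probe sets, the higher floor 5675, no filter 13057 and at least 8 arrays 5665. All other settings tested 7726, so the counts above are of different totals. Signal near the floor limits Ccn2 and Mgp, and the 2 cultures of day 0 limit every contrast with it.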
